A study of Canis lupus familiaris with 6 samples.

Results

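Nucleolar ribosome biogenesis genes encode the factors that make ribosomal RNA in the nucleolus, modify and cut it, and fold it with ribosomal proteins into subunits. A list of 58 such genes was chosen by symbol for their roles, with earlier results of these data known. Of these, 53 had a probe set whose annotation gave that symbol alone, with 108 probe sets in all. They stand among 15115 named genes and 42924 probe sets on the array. No probe set here carries RRP9, BOP1, GNL3, POLR1B or POLR1D as its single symbol, and these 5 genes were not analysed here.

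RNA polymerase I copies the ribosomal genes into a long precursor. On this nascent RNA the small-subunit processome assembles, starting with the UTP-A complex and followed by UTP-B and the U3 particle. Box C/D particles guide methylation and box H/ACA particles guide pseudouridylation, while another set of factors, among them the PES1-BOP1-WDR12 complex and several helicases and GTPases, matures the large subunit. In growing epithelial cells this work is a main consumer of energy and is tied to growth signals, with the transcription factor MYC as a known activator of many of the genes.

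The samples were MDCKII cells, an established canine kidney epithelial line that polarizes in culture. In the 3D group (3 arrays) the cells formed cysts on Matrigel, an extract of basement membrane, of which 100 µl was spread thinly in each 60 mm dish and 2% was added to the medium. The 2D group (3 arrays) grew as a polarized monolayer in dishes without it. Both groups were of the same line and were harvested 36 h after plating, and cRNA was labelled from 4 µg of total RNA in each. The labels number the replicates and call them biological but do not say whether cultures were separate, so that p-values measure only the spread between these arrays.

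The columns did not share a scale. The arrays of replicates 2 and 3 had medians of 7.06 to 7.08 and no value below 0, whereas the replicate 1 arrays had medians of 5.26 in 3D and 5.42 in 2D and held 413 and 246 values below 0. Tests were therefore run on the other 4 arrays (replicates 2 and 3, n = 2 per group), and the replicate 1 pair gives a separate difference with no test. Of 11 measured epithelial markers, 10 lay above the median level of all probe sets, KRT8, KRT18 and EPCAM among them, with LHX1 below it. For markers of other cell types, 2 of 8 fibroblast, 1 of 5 leukocyte and 1 of 5 endothelial genes lay above that median. None of these 4 lists had a member past the test. The 3' minus 5' gap of the GAPDH control was 0.31 and 0.40 in 3D, against 0.20 and 0.16 in 2D, and that of the actin control 1.80 and 1.79 in 3D, against 1.90 and 2.07 in 2D. The poly-A spike-in controls averaged 9.09 and 8.35 in 3D, against 8.23 and 8.27 in 2D. The part of either in the results below was not tested.

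A part of the ribosome biogenesis genes was lower in cysts than in monolayers, with members that fell among small-subunit, large-subunit and modification factors. With each gene taken by its brightest probe set, 18 of 53 members fell, 0 rose and 35 did not pass the test (limma, adjusted p under 0.05 over all probe sets). Across all named genes, 3.09% passed as lower and 4.20% as higher. The member list was made with earlier results of these data known, so it is not independent of the values compared here. The median log2 difference of the members was -0.41, against -0.01 for all named genes. At an unadjusted limma p under 0.05, 40 members were lower and 0 higher, where 12.6% of all named genes were lower. For 45 members both 3D values lay below both 2D values, an arrangement seen for 27.4% of named genes. The difference itself was below 0 for 52 members, as it was for 51.8% of named genes.

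All 53 members had mean levels above the probe set median of 7.07 on the log2 scale, from 7.37 to 13.59. Among the 8095 named genes within that range of levels, 5.29% passed as lower. The falls were small in size: the 18 members that passed were 1.39-fold to 2.01-fold lower in 3D. Between the pair of arrays of a group, the members differed by a median of 0.16 in 3D and 0.06 in 2D. In these bulk samples fewer cells with a high level and less RNA per cell cannot be told apart.

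**Figure D1:**
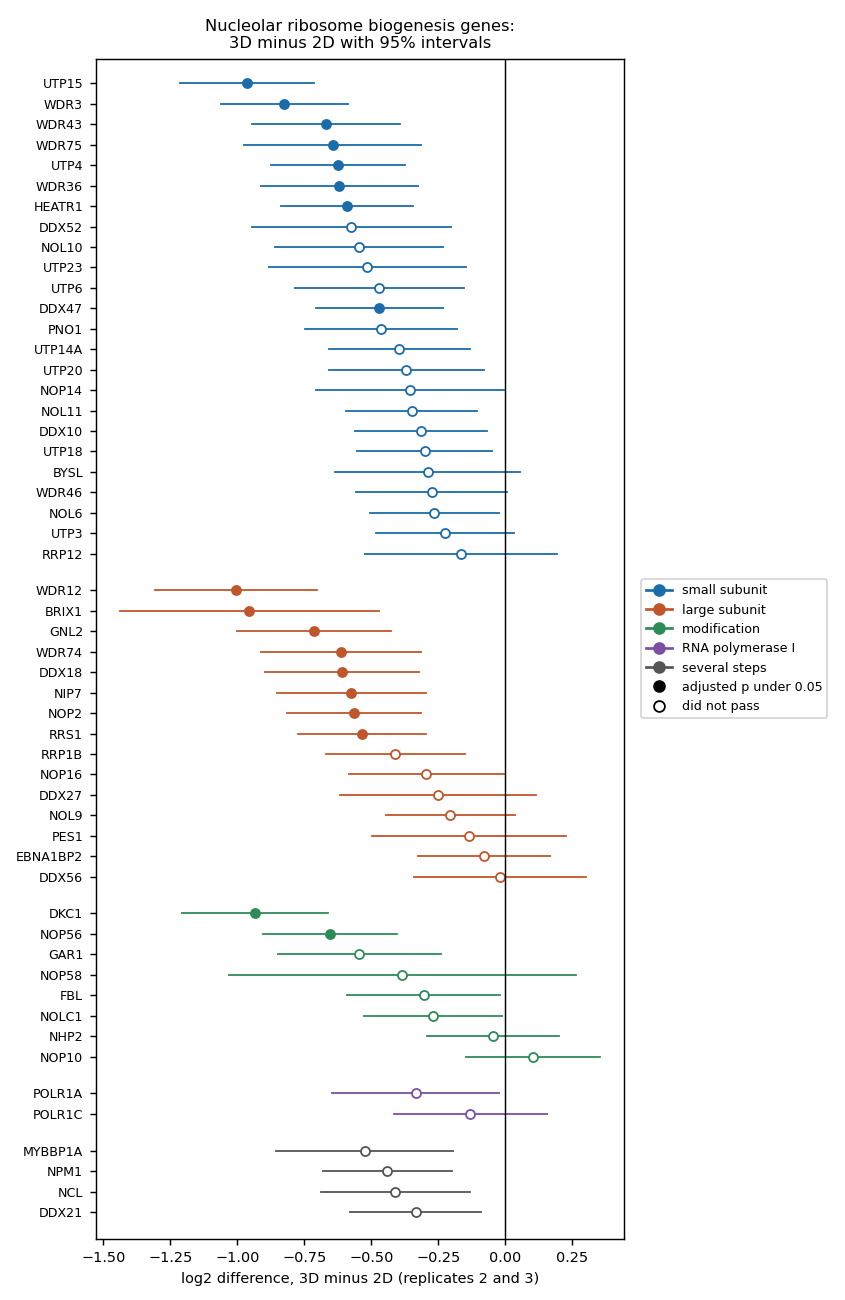
Log2 difference of each of the 53 measured members, 3D minus 2D, on the arrays of replicates 2 and 3 (points, n = 2 arrays per group), with 95% intervals from limma (lines), grouped by step. Filled points passed at an adjusted p under 0.05; 52 of 53 points lie left of 0, NOP10 being the exception, and the lowest is WDR12 at -1.005.

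Small-subunit factors made up the largest group, with 24 measured members. Of these, 8 fell, 0 rose and 16 did not pass; the median log2 difference was -0.4675, within a range of -0.965 to -0.165. Every one of the 24 differences was below 0, and in 23 genes both 3D values were below both 2D values. Among all named genes these shares were 51.8% and 27.4%.

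The UTP-A complex, which binds the precursor first and in human cells is also needed for its transcription, had 5 of 6 members lower. UTP15, a WD-repeat subunit of it, read 9.27 and 9.36 in 3D, against 10.24 and 10.32 in 2D. The groups were far apart compared with the gap inside each, and UTP15 was 1.95-fold lower (log2 difference -0.965, SE 0.102, limma adjusted p = 0.0110). WDR43, another WD-repeat subunit, read 10.40 and 10.60 in 3D, against 11.15 and 11.19 in 2D, without overlap (-0.67, SE 0.113, limma adjusted p = 0.0286). Its other probe sets fell further, by 1.01 and 0.93 on the log2 scale.

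UTP4, known as cirhin and mutated in a childhood liver cirrhosis, read 11.60 and 11.48 in 3D, against 12.16 and 12.17 in 2D. The 3D values were lower on both arrays, by 1.54-fold on average (-0.625, SE 0.102, limma adjusted p = 0.0268). For HEATR1, the large HEAT-repeat subunit, values were 9.60 and 9.51 in 3D, against 10.17 and 10.12 in 2D (-0.59, SE 0.101, limma adjusted p = 0.0298). WDR75 read 9.49 and 9.81 in 3D, against 10.34 and 10.25 in 2D, with the wider spread in the 3D group (-0.645, SE 0.136, limma adjusted p = 0.0483). NOL11, the remaining subunit, did not pass at -0.35 (95% interval -0.59 to -0.11, limma adjusted p = 0.0985).

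In the UTP-B complex, which joins UTP-A on the precursor, 2 of the 4 subunits on the member list fell. WDR3 read 10.73 and 10.69 in 3D, against 11.52 and 11.55 in 2D. Both groups were tight and 0.79 apart at their nearest values, a 1.77-fold lower level (-0.825, SE 0.0974, limma adjusted p = 0.0132). WDR36, a gene linked to glaucoma in humans, read 10.83 and 11.07 in 3D, against 11.60 and 11.54 in 2D (-0.62, SE 0.120, limma adjusted p = 0.0396). UTP6 at -0.47 and UTP18 at -0.30 did not pass, though 2 of the 4 UTP6 probe sets did, at -0.825 and -0.59. Of the UTP-B subunits outside the member list, PWP2 fell (-0.575, limma adjusted p = 0.0359) and TBL3 did not pass (-0.23, limma adjusted p = 0.480).

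DDX47, a DEAD-box RNA helicase of small-subunit processing, was the eighth small-subunit gene to fall. It read 10.83 and 10.82 in 3D, against 11.28 and 11.31 in 2D (-0.47, SE 0.0968, limma adjusted p = 0.0458), and all 3 of its probe sets passed. DDX52, another such helicase, showed the largest difference among the small-subunit genes that did not pass, with 8.84 and 9.25 in 3D, against 9.63 and 9.61 in 2D (-0.575, 95% interval -0.95 to -0.20, limma adjusted p = 0.0834). The 3D arrays were 0.41 apart for this gene. PNO1, a late assembly factor that stays on the subunit into the cytoplasm, differed by -0.465 (limma adjusted p = 0.0729), and its second probe set passed at -0.715. UTP3 (-0.225, limma adjusted p = 0.272) did not pass. The other 10 small-subunit genes that did not pass lay between -0.545 for NOL10 and -0.165 for RRP12.

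**Figure D2:**
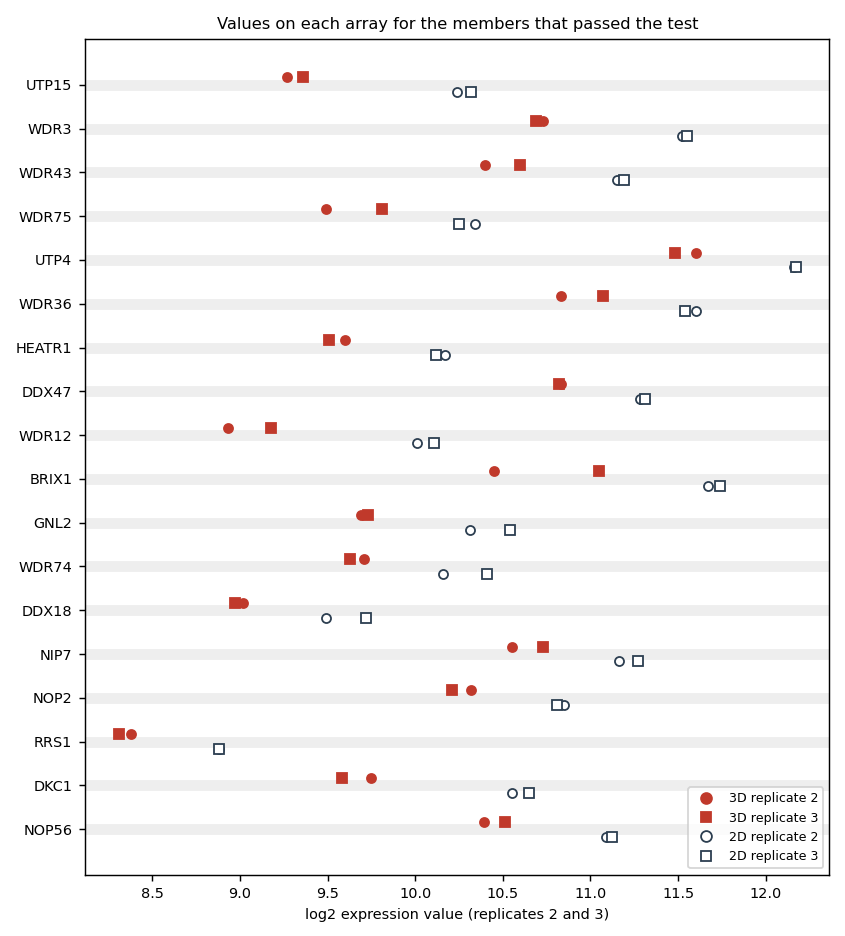
Log2 expression values on the 4 arrays of replicates 2 and 3 for the 18 members that passed the test, 3D arrays (filled) drawn above 2D arrays (open), circles for replicate 2 and squares for replicate 3. In each gene both 3D values lie left of both 2D values, with the widest 3D spread for BRIX1 at 10.45 and 11.05.

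Among large-subunit factors, 8 of 15 measured members fell, 0 rose and 7 did not pass; their median log2 difference was -0.535. All 15 differences were below 0, as were 51.8% of those of all named genes, and the least of the 15 was -0.02 for DDX56. In 12 genes both 3D values were below both 2D values, as in 27.4% of named genes.

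WDR12, a subunit of the PES1-BOP1-WDR12 complex, had the lowest difference of all members on their brightest probe sets. It read 8.93 and 9.18 in 3D, against 10.01 and 10.11 in 2D, which is 2.01-fold lower (-1.005, SE 0.124, limma adjusted p = 0.0140). Its second probe set was at -0.515, or 1.43-fold lower, and did not pass (limma adjusted p = 0.0771). Its partner PES1 read 10.57 and 10.33 in 3D, against 10.43 and 10.74 in 2D, and the groups overlapped (-0.135, 95% interval -0.50 to 0.23, limma adjusted p = 0.665). The interval of the brightest WDR12 probe set did not meet that of PES1. That of the second WDR12 probe set, -0.84 to -0.19, did. In replicate 1 the differences were -0.43 for WDR12 and -0.60 for PES1. The difference between these genes was not tested.

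BRIX1, which helps to build the early large-subunit particle, read 10.45 and 11.05 in 3D, against 11.67 and 11.74 in 2D. Its 3D arrays were 0.60 apart, so that a log2 difference of -0.955 carried an SE of 0.198 (limma adjusted p = 0.0469). GNL2, a GTPase of the late nuclear particle, read 9.69 and 9.73 in 3D, against 10.31 and 10.54 in 2D (-0.715, SE 0.117, limma adjusted p = 0.0269). A second GNL2 probe set passed at -0.945 and the remaining one, with values of 5.43 to 6.01 near the arrays' lower quartiles of 5.64 to 5.67, stood at 0.295 (limma adjusted p = 0.312).

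WDR74, a factor of the early particle, read 9.71 and 9.63 in 3D, against 10.16 and 10.41 in 2D (-0.615, SE 0.122, limma adjusted p = 0.0428). DDX18, a DEAD-box helicase, read 9.02 and 8.97 in 3D, against 9.49 and 9.72 in 2D (-0.61, SE 0.118, limma adjusted p = 0.0395). For both genes the wider spread was in the 2D group, and the groups stayed apart. NIP7, which binds pre-ribosomal particles, read 10.55 and 10.73 in 3D, against 11.16 and 11.27 in 2D (-0.575, SE 0.114, limma adjusted p = 0.0423).

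NOP2, a proliferation-linked nucleolar antigen that methylates the large ribosomal RNA, read 10.32 and 10.21 in 3D, against 10.85 and 10.81 in 2D (-0.565, SE 0.102, limma adjusted p = 0.0337). RRS1, which brings a small ribosomal RNA particle into the assembling subunit in yeast, read 8.38 and 8.31 in 3D, against 8.88 on both arrays in 2D (-0.535, SE 0.0984, limma adjusted p = 0.0350). Neither gene's groups overlapped. RRP1B had the largest difference among large-subunit genes that did not pass (-0.41, limma adjusted p = 0.0805), with another of its 3 probe sets past the test at -0.455. EBNA1BP2, at -0.08, and NOP16, at -0.295, did not pass, though the second NOP16 probe set did at -0.56. The other EBNA1BP2 probe sets were lower, at -0.37 and -0.275, and did not pass either (limma adjusted p = 0.0844 and 0.158).

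Of 8 members of the modification machinery, 2 fell, 0 rose and 6 did not pass; their median was -0.345. DKC1, the pseudouridine synthase of box H/ACA particles and the gene mutated in X-linked dyskeratosis congenita, read 9.75 and 9.58 in 3D, against 10.55 and 10.65 in 2D. It was 1.91-fold lower (-0.935, SE 0.112, limma adjusted p = 0.0135), and its other probe sets passed as well, at -0.895 and -0.86.

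The partners of DKC1 in the same particle did not pass. GAR1 read 8.72 and 8.99 in 3D, against 9.37 and 9.43 in 2D (-0.545, 95% interval -0.85 to -0.24, limma adjusted p = 0.0596). NHP2 read 12.69 and 12.61 in 3D, against 12.66 and 12.73 in 2D, with overlap (-0.045, 95% interval -0.29 to 0.20, limma adjusted p = 0.853). NOP10 read 12.52 and 12.43 in 3D, against 12.41 and 12.33 in 2D (0.105, 95% interval -0.14 to 0.35, limma adjusted p = 0.619). The interval of DKC1, -1.21 to -0.66, met neither that of NHP2 nor that of NOP10, and the differences between these genes were not tested.

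In box C/D particles, NOP56, a core scaffold protein, read 10.39 and 10.51 in 3D, against 11.09 and 11.12 in 2D (-0.655, SE 0.103, limma adjusted p = 0.0241). FBL, the methyltransferase fibrillarin, read 12.88 and 12.92 in 3D, against 13.09 and 13.32 in 2D, without overlap but short of the threshold (-0.305, 95% interval -0.59 to -0.02, limma adjusted p = 0.189). For NOP58, the other scaffold, the brightest probe set read 11.74 and 12.60 in 3D, against 12.55 and 12.56 in 2D. Its 3D arrays were 0.86 apart, more than for any other member, and 3D replicate 3 lay above the 2D arrays (-0.385, limma adjusted p = 0.458). The other two NOP58 probe sets passed, at -0.905 and -0.775, with limma adjusted p of 0.0276 and 0.0477. NOLC1, which chaperones both kinds of particle, stood at -0.27 (limma adjusted p = 0.193).

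Only 2 of 4 RNA polymerase I members were measured, and neither passed. POLR1A, the largest subunit, read 8.20 and 7.91 in 3D, against 8.39 on both arrays in 2D (-0.335, 95% interval -0.65 to -0.02, limma adjusted p = 0.184). POLR1C, a subunit shared with RNA polymerase III, read 10.80 and 10.94 in 3D, against 10.91 and 11.09 in 2D, with overlap (-0.13, 95% interval -0.41 to 0.15, limma adjusted p = 0.583). A second POLR1C probe set was brighter than this on each tested array, with 10.86 and 11.00 in 3D, against 11.11 and 11.34 in 2D. Its groups did not overlap, but it did not pass (-0.295, limma adjusted p = 0.222). The remaining, dim POLR1C probe set stood at -0.145 without overlap and did not pass (limma adjusted p = 0.454).

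The 4 members that act at several steps did not pass on their brightest probe sets. In each, both 3D values lay below both 2D values, as they did for 27.4% of named genes. MYBBP1A, which binds MYB and takes part in ribosomal RNA transcription and processing, read 10.04 and 9.71 in 3D, against 10.41 and 10.39 in 2D (-0.525, limma adjusted p = 0.0784). NPM1, the nucleolar chaperone nucleophosmin, read 12.33 and 12.26 in 3D, against 12.72 and 12.75 in 2D (-0.44, limma adjusted p = 0.0569). NCL, the abundant RNA-binding protein nucleolin, stood at -0.41 (limma adjusted p = 0.0934) and its second probe set, with 11.95 and 12.06 in 3D, against 12.86 and 12.83 in 2D, passed at -0.84 (limma adjusted p = 0.0137). DDX21, a helicase of ribosomal RNA transcription and processing, stood at -0.335, and its second probe set passed at -0.565 (limma adjusted p = 0.0495).

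Probe set by probe set, 38 of 108 fell and 0 rose, against 2.96% lower and 3.65% higher among all probe sets. The median over the 108 was -0.455, against -0.005 over all probe sets, and 102 were below 0. On the brightest probe sets, 51.8% of all named genes were below 0. Of 37 members with several probe sets, 32 had all of them below 0 and 4 had signs that differed, NOL10, DDX56, GNL2 and NHP2, while both probe sets of NOP10 were above 0. Every probe set passed for UTP15, WDR43, DDX47 and DKC1. With the mean of the probe sets taken per gene, 23 members fell, where 3.89% of named genes did. Another 8 members, UTP6, UTP20, PNO1, NOP16, RRP1B, NOP58, NCL and DDX21, passed on a probe set other than the brightest, which brings those with any passing probe set to 26, where 4.95% of named genes had one that was lower. Conversely, 10 members that passed on the brightest had another probe set that did not: HEATR1, WDR36, WDR12, WDR74, NOP2, DDX18, GNL2, NIP7, BRIX1 and NOP56.

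**Figure D3:**
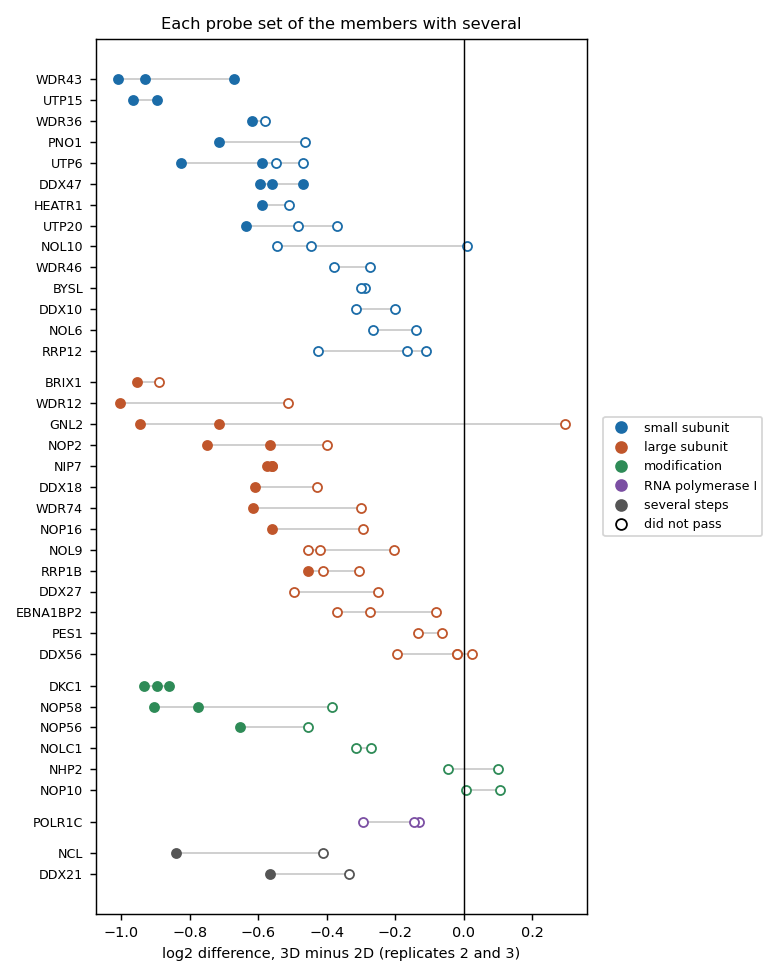
Log2 difference, 3D minus 2D on replicates 2 and 3, of each probe set (point) of the 37 members with several, grouped by step; grey lines join the probe sets of a gene and filled points passed the test. The 3 DKC1 probe sets lie close together at -0.935, -0.895 and -0.86, whereas those of GNL2 run from -0.945 to 0.295.

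Further genes of the pathway fell as well. Of 98 measured factors outside the member list, covering both subunits, modification, RNA polymerase I and the RNA exosome, 20 fell, 0 rose and 78 did not pass. These lists too were made with earlier results of these data known. Among all named genes, 3.09% passed as lower and 4.20% as higher. The median log2 difference of the 98 was -0.37, against -0.01 for all named genes. In replicate 1, 59 of the 98 lay below 0, a share of 60.2%, near the 54.6% of all named genes. Of the 20 that fell, 12 lay below 0 there and 8 above, namely EXOSC3 (0.58), EXOSC9 (0.48), RIOK1 (0.36), POLR1F (0.33), RPF2 (0.15), SDAD1 (0.12), NLE1 (0.08) and NUFIP1 (0.05). By list, 5 of 25 other small-subunit factors fell, 7 of 34 large-subunit factors, 3 of 14 modification factors, 2 of 13 RNA polymerase I factors and 3 of 12 exosome genes. The kinase gene RIOK1 (-0.865, SE 0.106), NLE1 (-0.87, SE 0.0992), which works on the large subunit, and RBM28 (-0.845, SE 0.0981) had the smallest limma adjusted p, of 0.0128 to 0.0140. SNU13, a core protein of box C/D particles beside NOP56, read 12.86 and 12.75 in 3D, against 13.44 and 13.47 in 2D (-0.65, limma adjusted p = 0.0240). NAF1, which helps to assemble box H/ACA particles with DKC1, fell by 0.825 (limma adjusted p = 0.0408), and POLR1F, an RNA polymerase I subunit, by 0.835 (limma adjusted p = 0.0235).

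The exosome, which trims ribosomal RNA precursors, had EXOSC9 (-0.68), EXOSC8 (-0.745) and EXOSC3 (-0.625) lower on replicates 2 and 3, whereas EXOSC9 and EXOSC3 were above 0 in replicate 1. Further genes that fell were LTV1 (-0.775) and DHX37 (-0.725) for the small subunit, MAK16 (-0.56) for the large subunit and NUFIP1 (-0.695), which helps to assemble box C/D particles. POLR2H, a subunit shared by the nuclear RNA polymerases, fell by 0.525 (limma adjusted p = 0.0427), but stood at -0.255 (limma adjusted p = 0.183) on the probe set with the highest mean over replicates 2 and 3.

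Transcripts of the ribosomal proteins themselves, the other building material of the ribosome, had 0 of 52 measured genes past the limma test in either direction, and 1 lower and 1 higher at an unadjusted p under 0.05. Their median log2 difference was 0.0275, with a range of -0.465 to 0.275. The probe sets of these genes had a median level of 14.15, near the arrays' maxima of 15.05 to 15.10. Many ribosomal protein genes have near-identical copies, so that single genes of this list are uncertain. The contrast with the biogenesis factors was not tested.

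**Figure D4:**
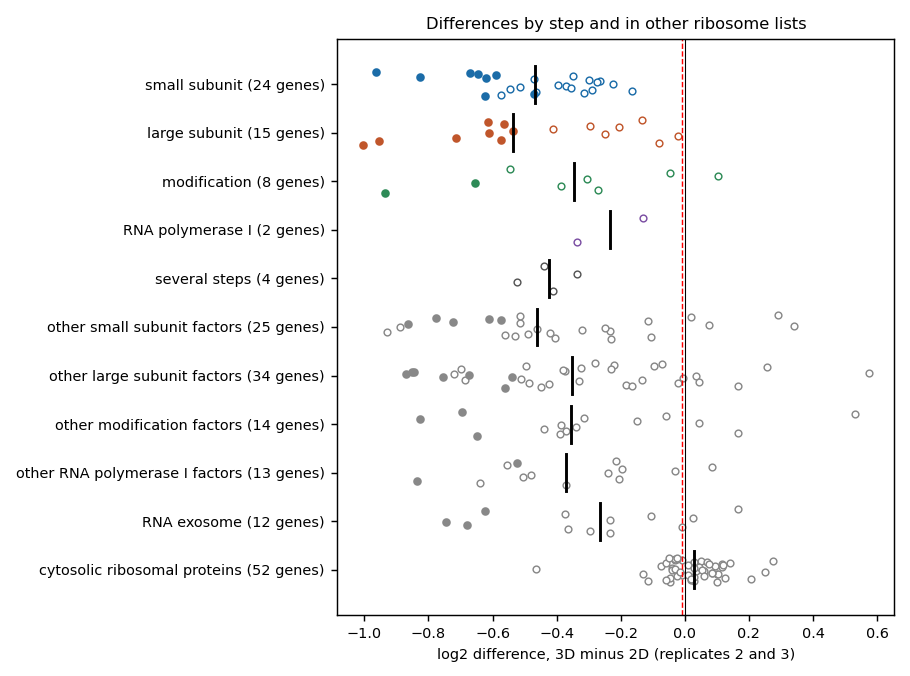
Log2 difference, 3D minus 2D on replicates 2 and 3, for each member by step (coloured) and each gene of the other ribosome lists (grey); filled points passed the test, black bars are medians and the dashed red line is the median of all named genes, -0.01. The medians of the small-subunit, large-subunit and modification members are -0.4675, -0.535 and -0.345, against 0.0275 for ribosomal proteins.

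MYC read 9.77 and 9.97 in 3D, against 10.97 and 11.11 in 2D, a log2 difference of -1.17 (SE 0.119, limma adjusted p = 0.0104), and differed by -2.81 in replicate 1. Of 15 listed proliferation genes 12 were measured, and none passed the limma test. At an unadjusted limma p under 0.05, 4 were lower and 0 higher, where 12.6% of all named genes were lower. Their median was -0.1825, against -0.01 for all named genes. In 8 of the 12 both 3D values lay below both 2D values, as in 27.4% of named genes. Whether MYC or the proliferation genes have a part in the lower biogenesis transcripts was not tested.

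In replicate 1, on its own scale and with 1 array per group, 42 of 53 members were below 0, 10 above and 1 at 0, where 54.6% of named genes were below 0. The members' median there was -0.49, against -0.11 for all named genes, and 26 lay below -0.5, as did 32.9% of named genes. The epithelial markers lay at least as low in this pair, with a median of -0.60, 9 of 11 below 0 and 6 below -0.5. The controls differed within the pair too: the actin 3' minus 5' gap was 2.85 in 3D, against 2.22 in 2D, that of GAPDH 1.47 in 3D, against 1.67 in 2D, and the poly-A spike-in mean 7.52 in 3D, against 6.83 in 2D. Their part in the replicate 1 values was not tested. All 18 members that passed on replicates 2 and 3 were also below 0 in replicate 1, from -1.45 for WDR3 to -0.09 for DDX47. With each 3D array set against the 2D array of the same number, which need not share a culture, 38 members were lower in 3D in each of the 3 pairs, as were 20.8% of named genes.

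By step, the replicate 1 median was -0.505 for the small subunit, -0.43 for the large subunit and -0.10 for modification. The modification median was thus near the -0.11 of all named genes. Of its 8 members 4 were below 0, where 54.6% of named genes were. The 4 above 0 were NHP2 (0.28), NOP10 (0.39), NOP58 (0.38) and FBL (0.02). Among genes that did not pass on the other arrays, RRP1B read 7.11 in 3D, against 9.14 in 2D, the lowest difference of the members at -2.03. UTP23 read 8.70 in 3D, against 7.94 in 2D, the highest at 0.76. Across the 53 members, which are not independent points, the differences on the 2 scales had a Spearman's rho of 0.0998, given as a description. Ribosomal proteins had 51 of 52 genes above 0 and 1 at 0 in replicate 1, with a median of 0.36. Of the 15115 named genes, 6761 were above 0 in this single pair, with a median of -0.11. On replicates 2 and 3 the ribosomal protein median was 0.0275.

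**Figure D5:**
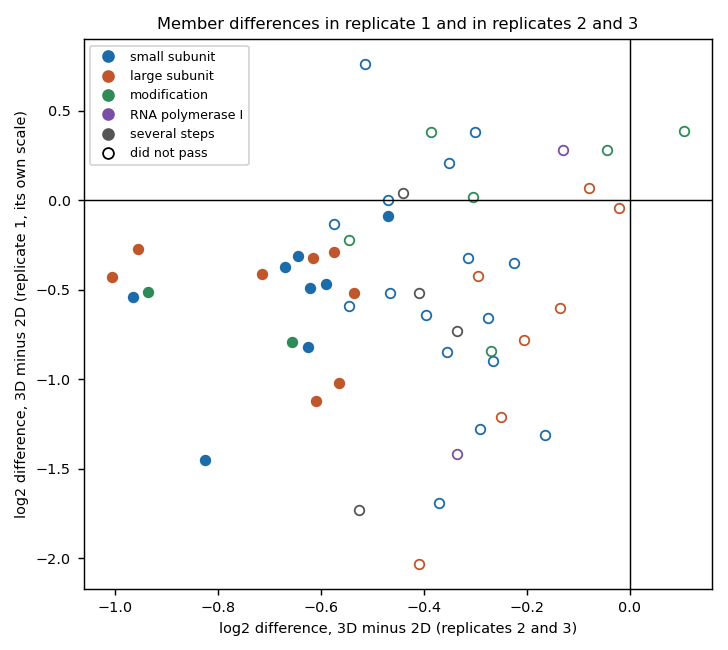
Log2 difference, 3D minus 2D, of each of the 53 members on replicates 2 and 3 (horizontal axis) and in the replicate 1 pair on its own scale (vertical axis), coloured by step; open points did not pass the test on replicates 2 and 3. All 18 filled points lie below 0 on both axes, and 42 of the 53 points lie below 0 on the vertical axis.

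With 2 arrays per group no call held when an array was left out. Leaving out either 3D array gave 0 members past the limma threshold, with 38 (without replicate 2) and 36 (without replicate 3) lower and 0 higher at an unadjusted p under 0.05. Leaving out either 2D array gave 0 as well, with 20 lower and 0 higher at an unadjusted p under 0.05 each time. With the replicate number as a block, limma again gave 0, with 33 lower and 0 higher at an unadjusted p under 0.05. The block fit and those without an array also left 0 calls among all 42924 probe sets. The members' median stayed between -0.435 and -0.405 in them.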

How the data were processed

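Expression was measured on 1-colour Affymetrix canine arrays, 3 per group. The deposited values are log2 expression per probe set; RMA and limma are named per the submitters' processing notes, with versions, probe set definition and genome build not given in the sources used here. How the replicate 1 columns were made is likewise not given.

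After 111 control probe sets were left out, limma 3.58.1 (lmFit, eBayes) in R 4.3.3 was fitted to the arrays of replicates 2 and 3 over 42924 probe sets, two-sided, with Benjamini-Hochberg adjustment over all of them. Standard errors and 95% intervals are limma's. There was no filter on level. Gene symbols came from the platform annotation (29254 probe sets with 1 symbol and 439 with several, from which none was named). For each gene the values are those of the probe set whose mean across the 6 arrays was highest, called the brightest here. Python 3.11.15 with pandas 2.3.3 made the counts, and the fit was tested on simulated data. In the simulation, 200 of 42924 probe sets were changed. The fit recovered 53 of 100 changes of log2 size 1 and 99 of 100 of size 2, with 9 false calls. In the data, 1272 probe sets passed as lower and 1565 as higher, so these rates need not carry over. Smaller changes were not simulated, so a gene that did not pass may still differ.

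The members and lists, and the choice of arrays, were made with earlier results of these data known. Named in full were members that passed, and per step those with the largest difference or the highest levels among the rest; partners in a complex, extreme values and genes that passed on another probe set were added after their values were seen, as were the shares of named genes within the members' range of levels, lower in all 3 same-numbered pairs, or with any passing probe set. Array number limits the precision.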

Additional observations from a re-analysis of the deposited data

How the results depend on the processing

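Of the 53 measured members, each kept its direction and its side of the threshold under quantile normalization, median centring and cyclic loess of the 4 arrays, without dim probe sets, and with the probe set chosen over replicates 2 and 3, and 18 fell in each case. Trend and robust priors left 13 (WDR75, DDX47, WDR74, DDX18 and NIP7 were lost, at limma adjusted p of 0.0527 to 0.0639). Averaging the probe sets of each gene, 23 fell: WDR74 and GNL2 were lost, and UTP6, UTP20, PNO1, GAR1, NCL, NPM1 and DDX21 were gained.

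The limma calls did not hold in fits with fewer residual degrees of freedom or with the replicate 1 scale. With all 6 arrays and no block, 0 probe sets passed (29 lower and 76 higher at an unadjusted p under 0.05), as did 0 member probe sets, 0 members and 0 of the 150 other ribosome genes (ribosomal proteins included), and the members' median was -0.48. With the replicate block, all 6 arrays gave 0 for the same counts and a median of -0.48, with 17 members lower and 0 higher at an unadjusted p under 0.05 and 1258 lower and 1465 higher of all probe sets. The replicate block on replicates 2 and 3 gave 0 for each count as well. Among replicates 2 and 3, same-numbered arrays did not deviate together (r = 0.00127 over 42924 probe sets), so these numbers were not taken to pair cultures; the replicate 1 arrays share a scale and correlated more with each other (r = 0.888) than with the rest (0.861 to 0.872). Leaving out each array in turn gave 0 to 0 calls for all probe sets in either direction, member probe sets, members and other ribosome genes, and a members' median of -0.435 to -0.405; the lone array is then assumed to vary like the other group.

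Signs that turned were small and of genes that had not passed: NHP2 was at 0.0633 and POLR1C at 0.00667 with all 6 arrays, with or without the block, and NHP2 at 0.0275 as a mean of probe sets. Leaving out each array in turn, PES1 ranged from -0.29 to 0.02 (above 0 without 2D replicate 3), DDX56 from -0.14 to 0.10 (above 0 without 2D replicate 3, at 0.08, and without 3D replicate 3), NOP58 from -0.815 to 0.045 (above 0 without 3D replicate 2) and RRP12 from -0.355 to 0.025 (above 0 without 3D replicate 3).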
